A study of Homo sapiens with 14 samples.

Results

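The comparison described here sets 5 libraries of a CTNNB1 knockout line (KO) against 3 libraries of a line built to overexpress CTNNB1 under doxycycline control and kept without the drug (OE without Dox). Its members are the genes with a normalized count of 10 or more in at least 3 of these 8 libraries, which left 16104 of the 58051 genes in the table. Both lines derive from H9, an established human embryonic stem cell line, and were grown into progenitors resembling the medial ganglionic eminence (MGE), the ventral forebrain region that gives rise to many cortical interneurons. The whole series has 14 libraries, the other two groups being wild-type H9 derivatives (WT, n = 3) and the overexpression line with doxycycline (OE with Dox, n = 3).

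All groups shared the same culture. SB431542 at 2 µM and LDN193189 at 200 nM, which block TGF-beta and BMP signalling, were present on days 0 to 6. Sonic hedgehog (250 ng/mL) followed, with purmorphamine (0.3 µM), which activates smoothened, on days 10 to 17. Neurospheres were then kept in suspension and collected on day 25. Neither KO nor OE without Dox received doxycycline, which the induced libraries had at 0.1 µg/mL over the last stage. The labels say neither how the knockout was made, nor which form of CTNNB1 the transgene carries, nor whether a line is 1 clone. They also do not say whether replicates are separate cultures, so p-values measure only the spread between these samples.

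The 8 libraries held 5233270 to 5576468 reads assigned to genes. A count of 0 allows up to 3 reads in a library, a normalized count of 2.68 to 2.83 here. The labels name no molecular identifiers, and reads need not be separate molecules, so such limits are for counting error alone. All levels below are normalized counts, which compare libraries for 1 gene and not genes with each other. Folds are log2 folds from limma on log2 of the normalized count plus 1, KO minus OE without Dox, so that a negative value is lower in KO. On that scale the change of genes with few reads is understated. Adjusted p is Benjamini-Hochberg over all 16104 genes, and a gene is called at 0.05. In bulk RNA, fewer cells of a type and less RNA per cell cannot be told apart.

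Beta-catenin, the product of CTNNB1, links cadherins to the actin cytoskeleton at cell junctions. In canonical WNT signalling it is spared from a destruction complex of AXIN, APC and GSK3 when WNT ligands engage Frizzled and LRP receptors, and it then acts with TCF/LEF factors in the nucleus on targets that include AXIN2, LEF1 and SP5. In the embryonic forebrain WNT ligands from the cortical hem act on dorsal fates, while sonic hedgehog acts on ventral ones such as the MGE.

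CTNNB1 itself (ENSG00000168036, on the plus strand of hg38 chromosome 3 between 41194741 and 41260096) was read in every library. The level was 2483, 2779, 2385, 2178 and 2090 in KO 1 to 5 and 3084, 3318 and 3633 in OE without Dox 1 to 3. Every KO library lay below every OE without Dox library, although transcript remained abundant in KO. The log2 fold was -0.49 (SE 0.13), with an adjusted p of 0.0526, so the gene was not called. WT stood at 4393, 3803 and 3248, which overlaps OE without Dox, and the induced libraries reached 23861 to 31290. The gene was called when KO 2 was left out (adjusted p = 0.0373) and missed the threshold most widely without OE 3 (0.312). A count over the whole gene does not tell an edited transcript from an intact one.

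Across all genes, 57 were called higher in KO and 246 lower. These are 0.354% and 1.53% of the genes tested, and together 303 genes or 1.88%. A fold of at least 2 was reached by 35 of the genes called higher and 207 of those called lower. The median log2 fold of all genes was 0.01. Every KO library was under 10 in 65 of the genes called lower, and every OE without Dox library in 12 of those called higher. Such genes passed the filter only through the group where they are high, so counts and medians of the lists below are descriptions. The ranges of the groups did not overlap in 300 of the 303 called genes, against 6.61% of all genes tested. The 3 exceptions, named after their values were seen, were HDC, ZBED10P and RORB. Counts depended on single libraries. Without OE 2 they were 20 higher and 140 lower, without OE 3 they were 22 and 192, and 35 or 37 genes were called higher without KO 2 or KO 5.

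**Figure D1:**
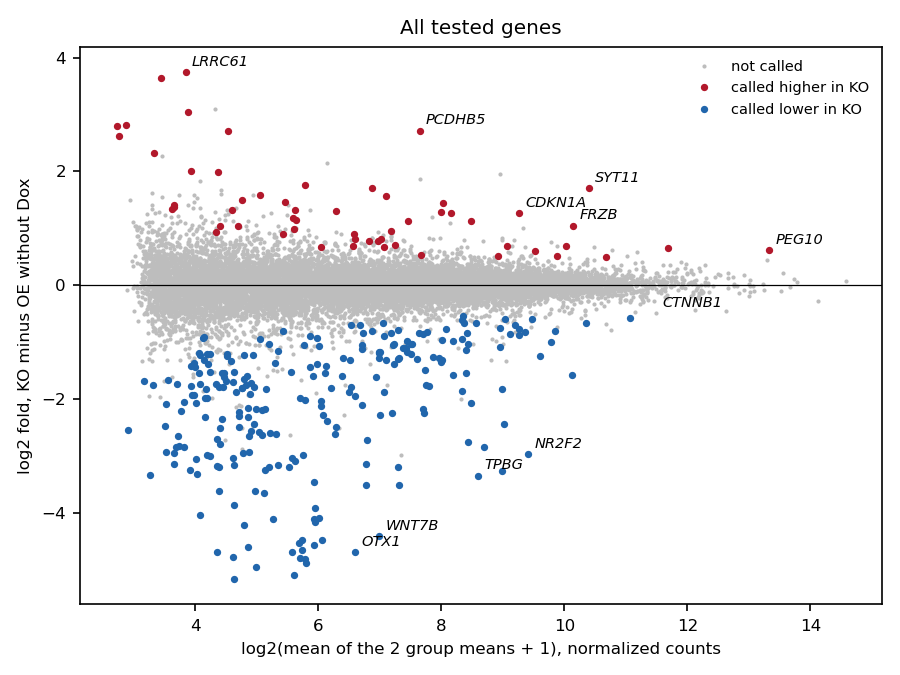
Each point is 1 of the 16104 tested genes, with the log2 of the mean of both group means plus 1 on the horizontal axis and the log2 fold of KO minus OE without Dox on the vertical axis. The 246 genes called lower (blue) extend down to a log2 fold of -5.16 for GDF10, and the 57 genes called higher (red) up to 3.74 for LRRC61, fitted folds that rest on few reads in 1 group and depend on the pseudocount.

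Of 12 feedback targets of the WNT pathway tested, 0 were called higher and 5 lower, beside 0.354% and 1.53% of all genes. All 12 folds were negative, with a median log2 fold of -0.73 beside 0.01 for all genes. AXIN2, a scaffold of the destruction complex that is induced by the pathway, stood at 112, 98.2, 77.5, 95.2 and 84.1 in KO 1 to 5 and at 193, 144 and 181 in OE without Dox 1 to 3. LEF1, a nuclear partner of beta-catenin, stood at 85.9, 76.5, 86.9, 131 and 76.1 in KO and at 198, 211 and 257 in OE without Dox. For both genes the groups were separate, with log2 folds of -0.88 (SE 0.14, adjusted p = 0.000933) for AXIN2 and -1.30 (SE 0.18, adjusted p = 0.00022) for LEF1. TNFRSF19, a receptor of the TNF family and a known target of the pathway, was at 15.7, 20.8, 29.3, 25.2 and 15.2 in KO and at 120, 143 and 131 in OE without Dox. Its log2 fold of -2.61 (SE 0.23, adjusted p = 2.29e-06) was the largest of the list. SP5, a zinc finger repressor, was at 6.47, 5.67, 2.83, 8.98 and 8.05 in KO and at 23.8, 23.1 and 35.4 in OE without Dox (log2 fold -1.99, SE 0.26, adjusted p = 0.000173). BAMBI, a decoy receptor for BMP ligands, was also called (-1.32, adjusted p = 0.00674), though not without OE 2 (0.0746). WT was higher still for these genes, for example 273, 289 and 262 for AXIN2 and 120, 124 and 139 for SP5. NKD1, another feedback inhibitor, overlapped at 134 to 230 in KO and 209 to 243 in OE without Dox, and NKD2 had a log2 fold of -0.01 (adjusted p = 0.999). Between 4 and 6 of the 12 were called with 1 library left out.

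The 250 bases before and 50 after the gene start were read for the 11083 tested genes with an entry in the RefSeq promoter table (GRCh38.p14). They were searched on both strands for the core of the TCF/LEF site, CTTTGAA or CTTTGAT, whose matches on opposite strands can overlap. Of all these promoters 438 (3.95%) held a match, against 12 of 196 (6.12%) for genes called lower in KO and 2 of 43 (4.65%) for genes called higher. The 3 promoters below are shown because their genes were called lower and hold the core, which is in capitals on either strand. SP5 has 3 matches, beginning 148, 109 and 84 bases before the start, TPBG has 1 at 44 and NR2F1 has 1 at 144.
SP5, chr2:170715087-170715386, plus strand: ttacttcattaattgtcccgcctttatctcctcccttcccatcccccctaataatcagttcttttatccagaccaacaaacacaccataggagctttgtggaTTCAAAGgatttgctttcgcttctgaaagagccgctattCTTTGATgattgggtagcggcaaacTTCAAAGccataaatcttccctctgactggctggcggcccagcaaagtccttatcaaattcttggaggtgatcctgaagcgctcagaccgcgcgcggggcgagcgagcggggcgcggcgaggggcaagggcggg
TPBG, chr6:82362733-82363032, plus strand: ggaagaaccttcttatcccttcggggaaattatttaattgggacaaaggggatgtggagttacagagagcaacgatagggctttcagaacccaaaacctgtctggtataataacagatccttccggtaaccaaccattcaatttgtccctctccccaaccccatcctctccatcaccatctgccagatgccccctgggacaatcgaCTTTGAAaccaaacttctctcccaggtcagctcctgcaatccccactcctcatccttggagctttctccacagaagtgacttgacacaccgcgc
NR2F1, chr5:93582972-93583271, plus strand: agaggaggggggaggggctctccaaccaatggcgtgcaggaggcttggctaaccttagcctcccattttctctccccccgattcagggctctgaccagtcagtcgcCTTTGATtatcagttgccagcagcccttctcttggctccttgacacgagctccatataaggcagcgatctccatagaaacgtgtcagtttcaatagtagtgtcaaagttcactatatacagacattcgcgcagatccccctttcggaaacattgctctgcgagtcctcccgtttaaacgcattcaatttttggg
A match is a description of these letters and not evidence that a factor binds there. The other genes called lower with the core were CORIN, PDE1A, SLIT1, FOXP2, PCDH7, DACH1, SP8, RMST and FIGN.

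Of 11 WNT ligands tested, 0 were called higher and 4 lower, beside 0.354% and 1.53% of all genes. Every KO library was under 10 in 2 of these 4, and the median log2 fold of the list was -0.44. WNT7B, expressed by neural progenitors, stood at 7.39, 12.3, 18, 17.1 and 3.58 in KO and at 187, 234 and 302 in OE without Dox. WNT8B, a ligand of the cortical hem, stood at 1.85, 0.944, 3.78, 1.8 and 1.79 in KO, 11 reads over 5 libraries, and at 41.2, 69.4 and 212 in OE without Dox. No KO library reached the lowest OE without Dox library for either gene, with log2 folds of -4.41 (SE 0.46, adjusted p = 4.88e-05) for WNT7B and -4.89 (SE 0.42, adjusted p = 1.3e-06) for WNT8B. WNT1 was called as well, at 0.895 to 3.69 in KO and 11 to 30.8 in OE without Dox (log2 fold -2.94, adjusted p = 0.00503). WNT5A, mostly a non-canonical ligand, was called at -0.81 (adjusted p = 0.0301), but 6 of the 8 fits that left out 1 library lost the call, with an adjusted p of up to 0.293 without OE 2. The others were not called, among them WNT3 (log2 fold -0.25, adjusted p = 0.954) and WNT7A (-0.17, 0.988). WLS, the carrier that brings WNT proteins to the cell surface, was at 113, 137, 214, 238 and 125 in KO and at 842, 716 and 1047 in OE without Dox (log2 fold -2.43, SE 0.26, adjusted p = 4.36e-05). WT held 2456 to 3233 WLS.

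R-spondins are secreted proteins that raise the number of Frizzled receptors at the surface, and 2 of them, RSPO2 and RSPO3, had few reads in KO. RSPO3 was at 2.77, 1.89, 3.78, 1.8 and 0 in KO, 11 reads in all, and at 98.8, 66.6 and 115 in OE without Dox (log2 fold -5.09, SE 0.38, adjusted p = 3e-07). RSPO2 had 13 reads over the 5 KO libraries and 63.1, 73.1 and 164 in OE without Dox (adjusted p = 1.19e-07). RSPO1 was at 17 to 26.4 in KO and 75.9 to 200 in OE without Dox (log2 fold -2.39, adjusted p = 4.61e-05). All 3 were called lower, out of 5 tested R-spondins and LGR receptors, beside 1.53% of all genes called lower. Every KO library was under 10 for RSPO2 and RSPO3, which passed the filter only through OE without Dox. LGR5, an R-spondin receptor, lay lower without overlap, at 65.6 to 140 against 151 to 241, but was not called (adjusted p = 0.0918). It was called when KO 4 was left out (0.038).

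Receptors and antagonists were mixed. FZD1 was at 73.9, 103, 122, 116 and 77.8 in KO and at 346, 310 and 330 in OE without Dox, 2 separate ranges (log2 fold -1.76, SE 0.16, adjusted p = 2.29e-06). ROR1, a receptor for WNT5A, was also called (-1.15, adjusted p = 0.00602), though not without OE 2 (0.0578). These 2 were the calls among 15 Frizzled and co-receptor genes, whose median log2 fold was 0.03, beside 1.53% of all genes called lower. FZD5 overlapped, at 2480 to 4077 in KO and 2451 to 3031 in OE without Dox, while WT held only 142 to 735. TPBG, a membrane inhibitor of WNT signalling, was at 57.3, 85.9, 81.2, 50.3 and 65.3 in KO and at 539, 648 and 930 in OE without Dox (log2 fold -3.35, SE 0.22, adjusted p = 8.52e-08). SFRP2, a secreted WNT-binding protein, was at 377 to 554 against 1040 to 1136 (-1.25, adjusted p = 0.0058). FRZB, of the same family, went the other way: 1420, 1629, 1177, 1734 and 1626 in KO against 861, 545 and 817 in OE without Dox. Its log2 fold was 1.05 (SE 0.20, adjusted p = 0.00616), and the call was lost without OE 2 (0.0732). Of 22 genes of the beta-catenin complexes tested, 0 were called lower and 1 higher, beside 0.354% of all genes. This was CTNNA3, an alpha-catenin, at 61.4 to 82.2 against 27.8 to 31.1 (1.14, adjusted p = 0.031), and each of the 8 fits with 1 library left out lost that call, with an adjusted p of up to 0.167. GSK3B stood at 1129 to 1299 and 967 to 1190, and TCF7L2 at 328 to 587 and 416 to 452.

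**Figure D2:**
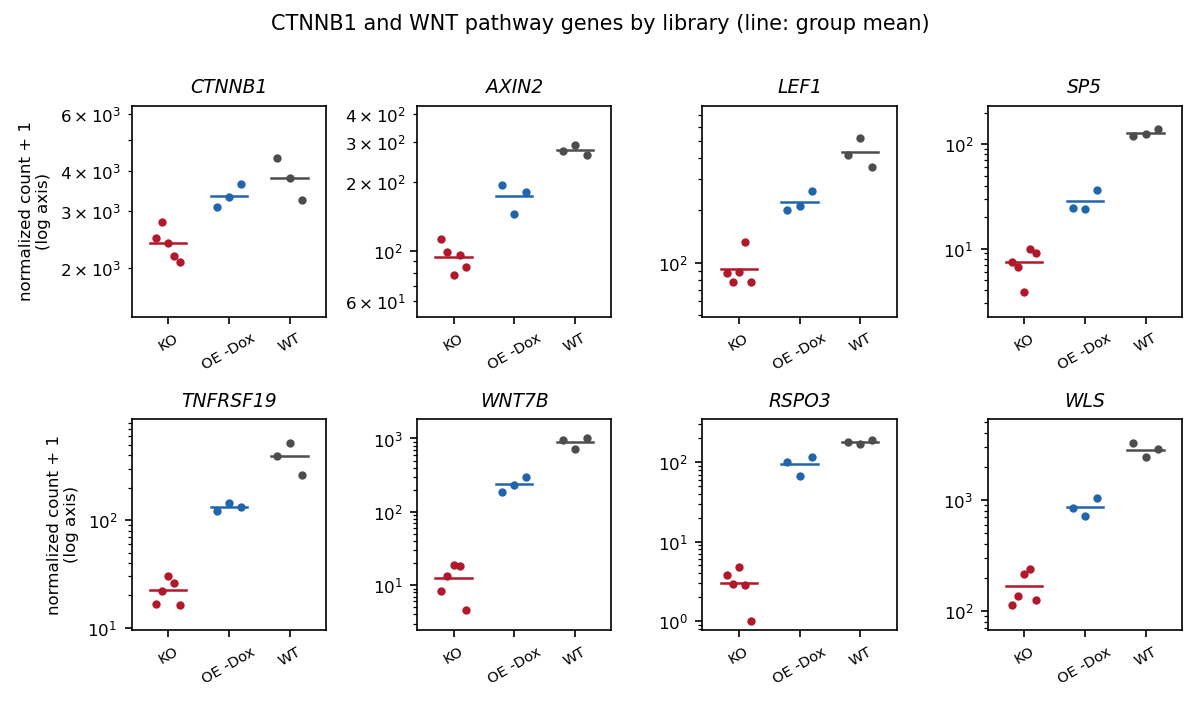
Normalized count plus 1 on a log axis for CTNNB1 and 7 WNT pathway genes, 1 point per library, with a line at the mean of KO (n = 5), OE without Dox (n = 3) and WT (n = 3). In all 8 panels the KO points lie below the OE without Dox points, and the means of WT are the highest.

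Genes of the dorsal telencephalon and cortical hem formed the list with the most calls beside the proneural genes. Of 18 tested, 0 were called higher and 9 lower, beside 0.354% and 1.53% of all genes. Every KO library was under 10 in 5 of the 9. The median log2 fold of the list was -2.58, and 9 or 10 were called with any 1 library left out. OTX1, a homeobox gene of the cortex, stood at 5.54, 8.5, 11.3, 5.39 and 2.68 in KO and at 160, 167 and 225 in OE without Dox. PAX6, the regulator of cortical progenitors, stood at 86.8, 94.4, 142, 139 and 43 in KO and at 889, 903 and 924 in OE without Dox. Both were separate by a wide margin, with log2 folds of -4.69 (SE 0.29, adjusted p = 8.52e-08) for OTX1 and -3.27 (SE 0.31, adjusted p = 1.73e-05) for PAX6. LMX1A, a marker of the hem and roof plate, had 5 reads over the 5 KO libraries and was at 32.9, 42.6 and 105 in OE without Dox (adjusted p = 2.14e-06). GDF7, a BMP ligand of the roof plate, was at 2.68 to 14.2 against 98.8 to 128 (log2 fold -3.45, adjusted p = 7.55e-05). DMRTA2 and DMRT3, doublesex-related factors of the hem and cortex, were at 3.58 to 9.24 against 74 to 179 (-4.09, adjusted p = 4.61e-05) and at 0 to 4.72 against 11.1 to 51.7 (-3.05, adjusted p = 0.00503). FEZF2, a gene of early forebrain and of deep cortical neurons, was at 33.1 to 122 against 278 to 407 (-2.24, adjusted p = 0.000298). OTX2, also on the list, overlapped, at 1365 to 2030 in KO and 1069 to 1761 in OE without Dox.

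Of 14 tested markers of the lateral and caudal ganglionic eminences (LGE and CGE), 0 were called higher and 7 lower. The shares of all genes were 0.354% and 1.53%. All 14 folds were negative and their median was -0.87. NR2F2 and NR2F1, the COUP-TF nuclear receptors that mark the caudal eminence, were both called. NR2F2 stood at 111, 123, 165, 261 and 135 in KO and at 1228, 1329 and 1038 in OE without Dox (log2 fold -2.97, SE 0.31, adjusted p = 7.37e-05). NR2F1 stood at 447, 449, 701, 854 and 421 in KO and at 1939, 1655 and 1364 in OE without Dox (log2 fold -1.57, SE 0.24, adjusted p = 0.00108). KO lay below OE without Dox for both, and WT lay above both, at 3712 to 4164 for NR2F2 and 2815 to 3024 for NR2F1. The counting may not use strand, so reads of these genes and of their antisense partners cannot be told apart. ZNF503, a repressor of striatal progenitors, was at 21.5 to 31.4 against 172 to 222 (-2.72, adjusted p = 3.7e-07). The other calls rest more on single libraries. EBF1 and FOXP2 lost theirs without OE 2 (adjusted p of 0.0625 and 0.0922), SP8 in 5 and MEIS1 in 7 of the 8 fits with 1 library left out (up to 0.280 and 0.199). With 1 library left out between 3 and 6 of the 14 were called, the fewest without OE 2. MEIS2 overlapped, at 178 to 493 and 322 to 485.

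Of 14 MGE genes tested, 0 were called higher and 2 lower, beside 1.53% of all genes called lower, and the factors that define the region were present in both lines. NKX2-1, the defining factor of the MGE, was at 2387, 2584, 2412, 3010 and 3475 in KO and at 1845, 1378 and 2394 in OE without Dox. LHX6, which acts in migrating interneurons, was at 280, 164, 345, 261 and 144 in KO and at 416, 120 and 153 in OE without Dox. LHX8, a factor of MGE cholinergic and early neurons, was at 873, 684, 1107, 704 and 559 in KO and at 985, 379 and 855 in OE without Dox. The groups overlapped for all 3, with adjusted p of 0.803, 0.988 and 0.98. These values do not show that the lines are alike, since the log2 folds carried SEs of 0.35, 0.49 and 0.31. SOX6 (494 to 749 against 446 to 935) overlapped as well. Every library of both groups thus held the markers of the labelled cell type. WT held 373 to 664 of NKX2-1, 79.5 to 111 of LHX6, 342 to 401 of SOX6 and 17 to 37.9 of LHX8. OLIG2, another MGE marker, went the other way in WT, at 209 to 349. It was at 129 to 202 in KO and 186 to 228 in OE without Dox, and was not called (adjusted p = 0.796). One of the 2 calls is MAF, a factor of cortical interneurons, at 29.6, 48.2, 50.1, 45.8 and 41.2 in KO and 220, 239 and 172 in OE without Dox (log2 fold -2.28, SE 0.21, adjusted p = 3.07e-06). The other is SHH, at 84 to 220 against 240 to 606 (-1.58, adjusted p = 0.0125), whose call was lost without OE 1 or OE 2 (up to 0.0934). Of 16 genes of GABAergic neurons 0 were called higher and 2 lower, ERBB4, a neuregulin receptor of migrating interneurons (31.2 to 53 against 141 to 201, log2 fold -2.11, adjusted p = 1.02e-05), and RELN (-1.88, adjusted p = 0.0329), which lost the call in 6 of the 8 fits with 1 library left out (up to 0.189). GAD1, which makes GABA, overlapped at 532 to 864 and 349 to 1010 and was not called, but without OE 1 it was called higher (log2 fold 0.83, adjusted p = 0.0181).

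**Figure D3:**
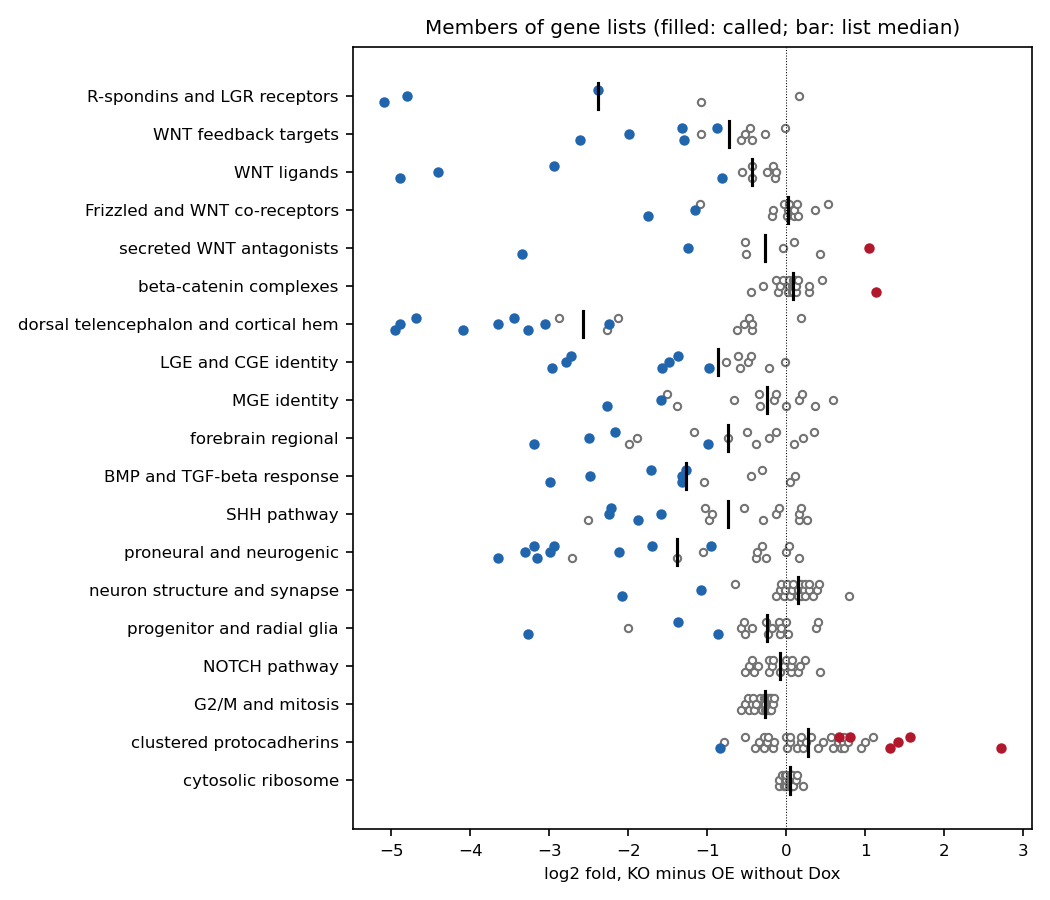
Log2 fold of KO minus OE without Dox (horizontal axis) for every tested member of 19 gene lists, filled where called (blue lower, red higher), with a bar at each list's median. The medians of the R-spondin and dorsal lists, at -2.39 and -2.58, are the lowest, whereas that of the G2/M list is -0.27 and that of the neuron structure list 0.15.

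In the forebrain list 0 of 15 were called higher and 4 lower, and in the hypothalamic list 0 of 10 and 2 of 10. Of all genes tested 0.354% were called higher and 1.53% lower. The median log2 folds of the lists were -0.74 and -1.02. ZIC2 and ZIC5 belong to a family of zinc finger factors of the dorsal midline. ZIC2 was at 68.4, 88.8, 78.4, 83.5 and 51 in KO and at 257, 312 and 447 in OE without Dox (log2 fold -2.17, SE 0.20, adjusted p = 2.55e-06), and ZIC5 at 8.05 to 39.7 against 110 to 165 (-2.50, adjusted p = 0.00209). KO was the lower group without overlap. WT lay above both lines for ZIC2, at 710 to 790. LHX9, a factor of the diencephalon and pioneer neurons, was at 1.89 to 12.9 against 57.1 to 110 (-3.20, adjusted p = 0.000618). SIM1, which marks hypothalamic neurons, had 5 reads over the KO libraries and 16.3 to 39.8 in OE without Dox, and FOXD1 was at 4.72 to 18.8 against 38.1 to 150 (-3.04, adjusted p = 0.000618).

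**Figure D4:**
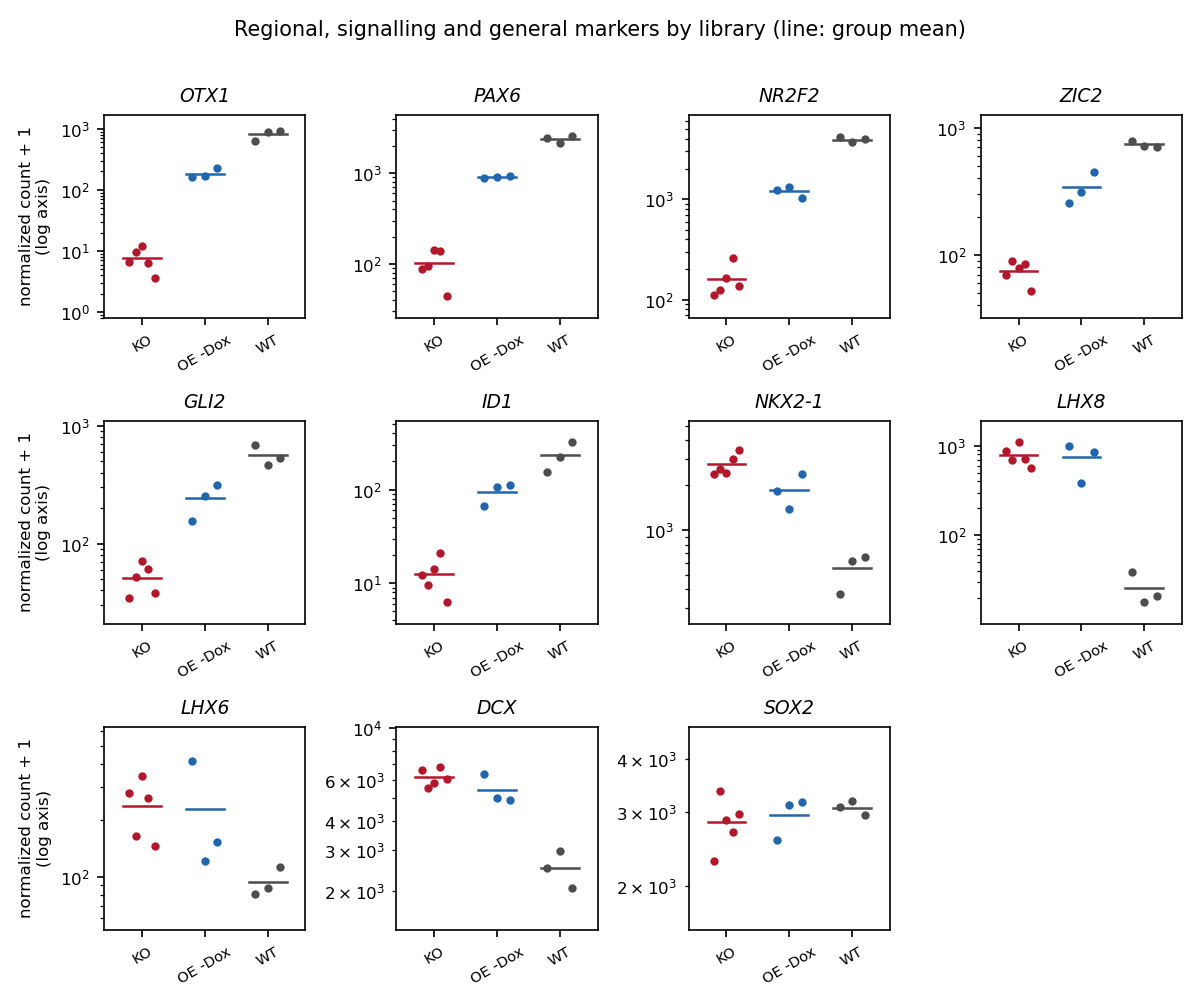
Normalized count plus 1 on a log axis for 11 regional, signalling and general markers, 1 point per library, with a line at the mean of KO, OE without Dox and WT. KO lies below OE without Dox for OTX1, PAX6, NR2F2, ZIC2, GLI2 and ID1, and the 2 groups overlap for NKX2-1, LHX8, LHX6, DCX and SOX2.

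Of the genes of sonic hedgehog and BMP signalling, some were called lower and others were not called. GLI1, a direct target of hedgehog signalling, was at 8.31, 8.5, 4.72, 8.08 and 12.5 in KO and at 45.7, 49 and 31.7 in OE without Dox. GLI2, the main activator, was at 33.3, 51, 69.9, 60.2 and 36.7 in KO and at 156, 254 and 315 in OE without Dox. For both, no KO library reached OE without Dox, with log2 folds of -2.22 (SE 0.39, adjusted p = 0.00388) for GLI1 and -2.24 (SE 0.26, adjusted p = 6.71e-05) for GLI2. GAS1, a co-receptor, was called at -1.88 (adjusted p = 0.00872) but not without OE 2 or OE 3 (up to 0.0577). PTCH1, the receptor and a target itself, overlapped at 774 to 1357 and 1049 to 1700. Of 16 pathway genes 0 were called higher and 4 lower, SHH included, beside 0.354% and 1.53% of all genes. With 1 library left out 2 to 5 were called lower, the fewest without OE 2. ID1, an inhibitor of helix-loop-helix factors and a direct BMP target, was at 11.1, 8.5, 13.2, 19.8 and 5.37 in KO and at 65.8, 105 and 110 in OE without Dox (log2 fold -2.99, SE 0.41, adjusted p = 0.000529). MSX1, another BMP target, was at 5.67 to 17.1 against 33.3 to 61.6 (-1.71, adjusted p = 0.0036). ID2 (-1.27, adjusted p = 0.00693) lost its call without OE 2 (0.0787). In the BMP response list 0 of 11 were called higher and 6 lower, beside the same shares of all genes. Its median was -1.27, and 2 to 6 were called lower with 1 library left out, the fewest without OE 2. Among BMP ligands GDF10 had 2 reads over the 5 KO libraries and stood at 36.6, 40.7 and 63.5 in OE without Dox (adjusted p = 1.54e-07).

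Of 19 proneural and neurogenic genes tested 0 were called higher and 9 lower, beside 0.354% and 1.53% of all genes. Their median log2 fold was -1.39, and 6 to 10 were called lower with 1 library left out, the fewest without OE 2. In 5 of the 9 every KO library was under 10. NEUROG1, a proneural factor, was at 5.54, 3.78, 10.4, 8.08 and 1.79 in KO and at 39.3, 48.1 and 53.5 in OE without Dox (log2 fold -2.95, SE 0.39, adjusted p = 0.000207). NEUROG2, its relative in the cortex, was at 0.895 to 8.98 against 55.3 to 72.2 (-3.65, adjusted p = 0.00674). BHLHE22, ONECUT1, EBF2 and EBF3, factors of newborn neurons, were called too, with log2 folds of -3.31, -1.70, -2.99 and -2.12 (adjusted p of 1.96e-05, 0.000479, 0.00209 and 0.00209). No KO library reached OE without Dox for any of these 6 genes. CNTN2, an adhesion protein of early axons, was at 156, 116, 140, 169 and 102 in KO and at 518, 713 and 501 in OE without Dox (log2 fold -2.08, SE 0.18, adjusted p = 1.28e-06). NEFM, a neurofilament, was called at -1.08 (adjusted p = 0.0254) and lost the call in 5 of 8 fits with 1 library left out (up to 0.200). These 2 were the calls among 25 genes of neuron structure and synapse, whose median was 0.15, beside 1.53% of all genes called lower. DCX, of migrating neurons, stood at 5531 to 6833 and 4897 to 6362, and STMN2 at 3645 to 4489 and 2915 to 3844. The progenitor factor SOX2 stood at 2281 to 3352 and 2568 to 3160.

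Of 13 retinoic acid genes 3 were called lower, of 35 ephrins, slits and netrins 3, of 29 semaphorins, plexins and neuropilins 1, and of 22 cadherin and adherens junction genes 3, with 0 called higher in each list. Of all genes 1.53% were called lower. With 1 library left out the 4 counts were 2 to 3, 2 to 3, 0 to 1 and 2 to 4, and the semaphorin call was lost without OE 2. CRABP1, a retinoic acid binding protein, was at 73.9, 109, 117, 117 and 80.5 in KO and at 883, 830 and 476 in OE without Dox (log2 fold -2.84, SE 0.28, adjusted p = 1.17e-05). ALDH1A1, which makes retinoic acid, was at 0.895 to 9.44 against 63.5 to 180 (-4.48, adjusted p = 0.000127). SLIT3, a repellent axon guidance cue, was at 0.895 to 10.4 against 79.6 to 132 (-4.11, adjusted p = 0.000272), and UNC5C, a netrin receptor, at 6.47 to 11.3 against 33.5 to 74 (-2.44, adjusted p = 0.000282). Among cadherins CDH20 was at 12.9 to 34 against 167 to 214 (-3.14, adjusted p = 0.000979). All these groups were separate. COLEC12, a scavenger receptor, had the smallest adjusted p of all genes, at 1.85, 2.83, 3.78, 1.8 and 2.68 in KO and 73.2, 77.7 and 166 in OE without Dox (log2 fold -4.82, SE 0.29, adjusted p = 3.64e-08). TRPM3, a cation channel that is abundant in choroid plexus and also hosts a microRNA, was at 13.9 to 44.4 against 257 to 342 (-3.51, adjusted p = 5.94e-07). CDH2, the main cadherin of neural progenitors, was not called (2089 to 2617 against 2675 to 3261, adjusted p = 0.687).

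Genes of the eye were also examined. They were gathered after their values had been seen, so their counts describe and test nothing: of 38 listed, 18 passed the filter, 8 were called lower and 0 higher. TYRP1, an enzyme of melanin synthesis, was at 0.924, 0.944, 3.78, 1.8 and 0 in KO, 8 reads in all, and at 76.8, 37 and 49.9 in OE without Dox. CRYBB1, a lens crystallin, was at 0.924, 0.944, 1.89, 7.19 and 0.895 in KO and at 72.2, 221 and 13.6 in OE without Dox. Both were called (adjusted p of 2.13e-05 and 0.00138), and OE without Dox varied widely among its own libraries for CRYBB1. WT was low for both genes as well, with 2.68 to 4.73 for TYRP1 and 4.47 to 6.06 for CRYBB1. The induced libraries of the same line held 7.37 to 32.5 of TYRP1 and 7.39 to 25.1 of CRYBB1. MITF, the regulator of pigment cells, was at 28.7 to 59.4 in OE without Dox and 28.6 to 71.6 in the induced libraries, and lost its call (-1.80, adjusted p = 0.0264) in 4 of 8 fits with 1 library left out (up to 0.192). DCT, another melanin enzyme, overlapped at 140 to 384 and 180 to 313, and RAX, of the early eye field, was not called (7.56 to 67.1 against 49 to 116, adjusted p = 0.139), except without KO 5 (0.0164), with KO 1, 2 and 3 alone and with the replicate block. BHMT, a methyltransferase of methionine metabolism, was at 0.895 to 3.78 in KO, 15.4 to 209 in OE without Dox, 112 to 206 in the induced libraries and 0.866 to 5.36 in WT (log2 fold -4.65, adjusted p = 0.000522).

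Markers of other cell types were measured beside these results, and their part in them was not tested. The counts of each list stand beside 0.354% of all genes called higher and 1.53% called lower. In the choroid plexus list 1 of 10 was called higher and 3 lower, and its summed level was 1586 to 2369 in KO and 1784 to 2393 in OE without Dox. TTR, the defining choroid plexus gene, was at 0 to 1.89 in KO and at 4.57, 254 and 29.9 in OE without Dox, so OE 2 stood apart. The mesenchyme list had 0 of 14 higher and 2 lower, with summed levels of 2418 to 3658 in KO and of 3024, 5440 and 3873 in OE without Dox. COL3A1 was again highest in OE 2, at 35.7, 812 and 69.8, against 5.37 to 28.7 in KO. The neural crest and pigment list had 0 of 6 higher and 3 lower and summed to 299 to 784 in KO and 733 to 898 in OE without Dox, with SOX10 at 0 in all 8 libraries. Its member TFAP2A was at 2.77 to 4.72 in KO and 24.5 to 50.9 in OE without Dox (log2 fold -2.71, adjusted p = 8.02e-05). The epithelial list had 0 of 7 higher and 1 lower, with sums of 108 to 187 and 160 to 281. POU5F1 and NANOG, of pluripotent cells, had at most 1.85 in any of the 8 libraries, and PECAM1, of endothelium, likewise. Without OE 2, 155 of the 303 called genes were still called in the same direction.

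Fewer genes were higher in KO, and the largest differences were of genes with very few reads in OE without Dox. LRRC61, a leucine-rich repeat protein, was at 8.31, 11.3, 31.2, 42.2 and 34 in KO and at 3.66, 0 and 0 in OE without Dox, which is 4 reads. ZFP3, a zinc finger protein, was at 14.8, 33, 32.1, 62 and 55.5 in KO and at 5.49, 3.7 and 4.53 in OE without Dox. SYT11, a synaptotagmin of membrane traffic, was at 1770, 2420, 2086, 2037 and 1904 in KO and at 901, 603 and 442 in OE without Dox. The groups were separate for the 3 genes, with log2 folds of 3.74 (SE 0.58, adjusted p = 0.000979), 2.72 (SE 0.40, adjusted p = 0.000497) and 1.71 (SE 0.24, adjusted p = 0.000513). WT lay near KO, with 17.9 to 29.5 for LRRC61, 24.6 to 39.3 for ZFP3 and 1562 to 2591 for SYT11. The induced libraries of the same line were low as well, with 0.923 to 3.72, 0.922 to 2.79 and 217 to 445. Against WT, OE without Dox gave log2 folds of -3.78, -2.57 and -1.62 (adjusted p of 0.00181, 0.00179 and 0.00164), while KO gave -0.03, 0.15 and 0.08 (0.981, 0.872 and 0.883). These comparisons share their libraries with the main one and with each other. DPPA4, a chromatin protein of early embryonic cells, was at 265 to 451 in KO, 111 to 156 in OE without Dox and 246 to 338 in WT (log2 fold of KO minus OE without Dox 1.45, adjusted p = 0.000712).

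The promoters of LRRC61 and ZFP3 are shown as examples of genes called higher that stood at 5.49 or less in every library of the overexpression line. CpG dinucleotides, the usual site of DNA methylation, are in capitals, and each promoter shown holds 32, against a median of 26 over all 11083 promoters. C5orf63 and BEX5, also called higher, met that limit in the same libraries, and their promoters hold 24 and 14 of these dinucleotides. The median was 14 for the 43 genes called higher with a promoter and 23 for the 196 called lower. Methylation was not measured in these libraries.
LRRC61, chr7:150323105-150323404, plus strand: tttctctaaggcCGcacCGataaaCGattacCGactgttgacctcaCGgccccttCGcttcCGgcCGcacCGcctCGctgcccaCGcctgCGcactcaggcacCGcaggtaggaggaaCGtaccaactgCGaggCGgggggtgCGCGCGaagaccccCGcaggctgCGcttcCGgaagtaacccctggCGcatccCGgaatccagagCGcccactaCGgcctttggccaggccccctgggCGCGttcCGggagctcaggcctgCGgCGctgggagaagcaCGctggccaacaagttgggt
ZFP3, chr17:5078217-5078516, plus strand: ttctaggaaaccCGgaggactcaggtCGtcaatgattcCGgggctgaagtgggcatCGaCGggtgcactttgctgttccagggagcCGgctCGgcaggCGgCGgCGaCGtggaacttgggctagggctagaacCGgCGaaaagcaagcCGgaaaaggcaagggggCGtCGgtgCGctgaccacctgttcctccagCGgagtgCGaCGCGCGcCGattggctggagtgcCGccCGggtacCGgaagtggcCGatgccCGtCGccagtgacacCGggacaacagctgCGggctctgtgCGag

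Clustered protocadherins, cell surface proteins that single neurons express in varied combinations, held 6 of the 57 genes called higher. Of 40 tested, 6 were called higher and 1 lower, beside 0.354% and 1.53% of all genes. The median log2 fold was 0.28, but only 1 was called higher without OE 2. PCDHB5 was at 166, 312, 337, 442 and 481 in KO and at 73.2, 34.2 and 46.2 in OE without Dox (log2 fold 2.72, SE 0.32, adjusted p = 8.24e-05). PCDHB15 was at 126 to 236 against 46.3 to 123 (1.56, adjusted p = 0.0131) and lost its call without OE 2 or OE 3 (up to 0.118). PCDHGB6 was the member called lower, at 181 to 295 against 422 to 448 (-0.84, adjusted p = 0.00681). KO and OE without Dox were separate in the 3 genes, and WT lay nearer to KO in each, with 163 to 328, 178 to 342 and 171 to 214. Exons at the 3' end of the gamma cluster are shared between its genes, so counts of its members are uncertain.

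The X chromosome held 11 of the 57 genes called higher, which is 1.67% of its 657 tested genes beside 0.354% of all genes. It was singled out after its values were seen. TCEAL5, of a family of small elongation factor-like proteins, was at 103, 90.6, 112, 136 and 107 in KO and at 53, 44.4 and 35.4 in OE without Dox (log2 fold 1.30, SE 0.19, adjusted p = 0.000456). BEX5, of a neighbouring small family, was at 18.5, 19.8, 25.5, 16.2 and 14.3 in KO and had 3 reads over the 3 OE without Dox libraries (adjusted p = 0.000346). Both groups were separate, and WT was near OE without Dox, at 47.3 to 58.1 for TCEAL5 and 0.866 to 1.79 for BEX5. The other 9 were TSPAN6, MID2, HTATSF1, BEX4, TCEAL4, RADX, HTR2C, TCEAL7 and DDX3X. HTR2C, a serotonin receptor of choroid plexus and neurons, was at 163, 195, 112, 114 and 313 in KO and at 39.3, 37 and 85.2 in OE without Dox (log2 fold 1.72, adjusted p = 0.00493), and lost its call without OE 2 (0.0577).

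CDKN1A, the p21 inhibitor of cyclin-dependent kinases and a p53 target, was at 1108, 1147, 879, 560 and 676 in KO and at 450, 301 and 317 in OE without Dox. The ranges were separate, with a log2 fold of 1.26 (SE 0.20, adjusted p = 0.00138). CDKN1A was the single call among 15 p53 targets and CDK inhibitors, beside 0.354% of all genes called higher. WT stood at 517 to 626, which overlaps KO. Against WT the log2 folds were 0.53 (adjusted p = 0.103) for KO and -0.74 (adjusted p = 0.0653) for OE without Dox. Lists of the cell cycle held no called gene. Of 27 G2/M genes 0 were called by limma, by edgeR or by DESeq2, although all 27 folds were negative, with a median of -0.27, and 5 had an unadjusted p under 0.05. MKI67 stood at 1948 to 2904 and 2484 to 3156. Of 24 G1/S genes 0 were called by each of the 3 tools, and 0 had an unadjusted p under 0.05. The 19 NOTCH pathway genes had 0 calls by each tool, 4 of them with an unadjusted p under 0.05, and the 12 FGF feedback genes had 0 calls and 3. FOS and EGR1, immediate early genes, varied widely within KO, at 49.4 to 1106 and 119 to 2362, and overlapped OE without Dox.

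**Figure D5:**
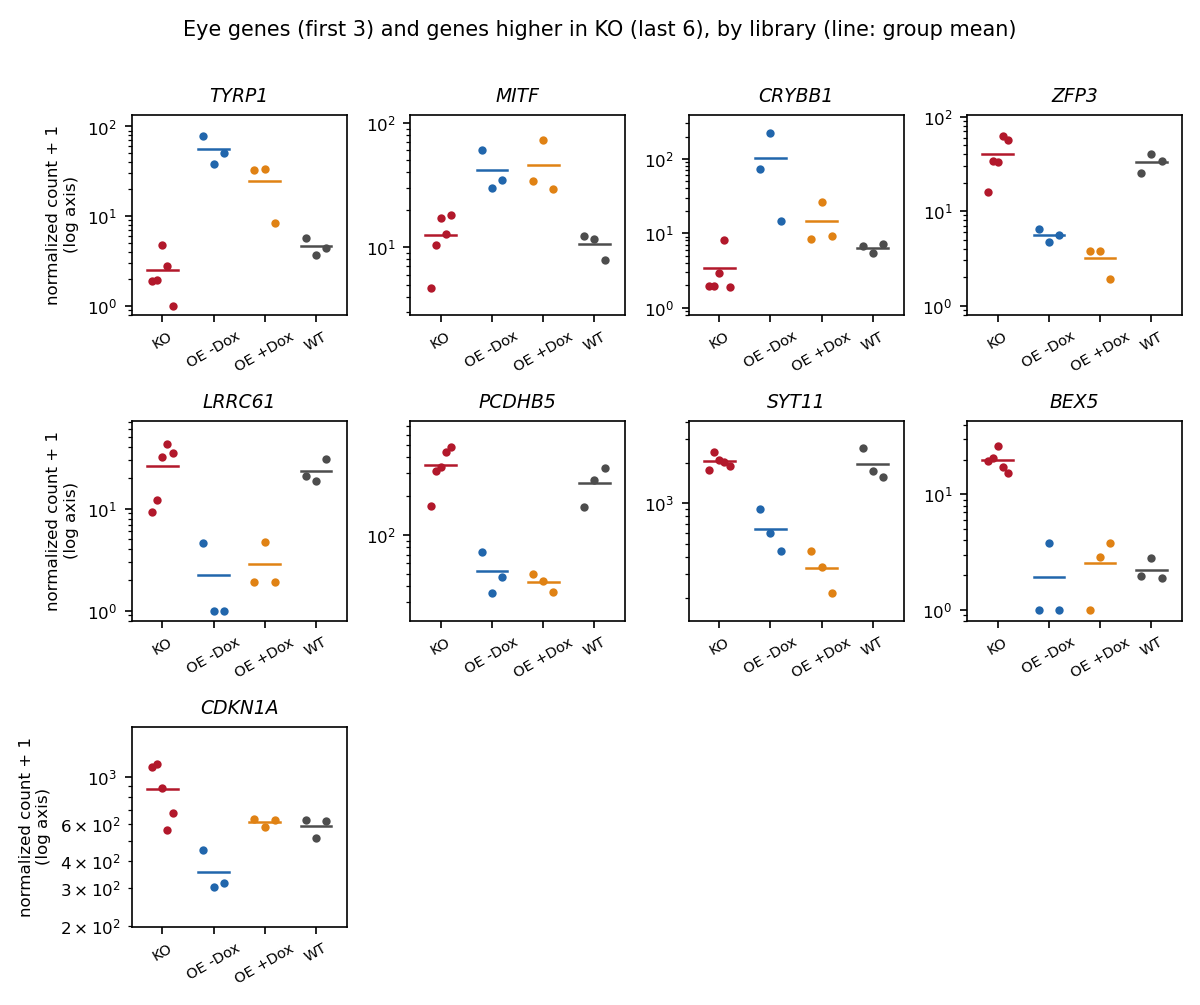
Normalized count plus 1 on a log axis for 3 eye genes and 6 genes called higher in KO, 1 point per library, with a line at the mean of each of the 4 groups. TYRP1 and CRYBB1 are highest in OE without Dox, whereas ZFP3, LRRC61, PCDHB5 and SYT11 are low in both groups of the overexpression line, below every KO and WT library.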

How the data were processed

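Gene expression was measured by RNA sequencing (NEBNext Ultra kit, 500 ng of total RNA per library, per the labels' protocols). The authors deposited a normalized signal: each gene's read count over a library-wide size factor. Dividing it back out gave whole reads for 100% of values, within 0.01 of a read. Software and build are known from the submitters' processing notes, which list hg38, DESeq2, R 3.4.0, HTSeq 0.9.1 and TopHat2 2.1.1 without roles, and the strand setting of the counting is not given in the sources used here. GENCODE 44 names 56948 of the 58051 gene identifiers.

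Genes with a value of 10 or more in 3 of the 8 libraries were tested on the log2 scale, after adding a pseudocount of 1, with limma 3.58.1 (R 4.3.3). The model held all 14 libraries in 4 groups (10 residual degrees of freedom), with an intensity trend, robust empirical Bayes and two-sided Benjamini-Hochberg adjusted p at 0.05. It was tested on simulated data. On recovered reads edgeR 4.0.16 called 47 genes higher and 250 lower, and DESeq2 1.42.0 called 90 and 318. Other alternatives were pseudocounts, filters, scalings, weights, a replicate block, a fit of the 8 libraries alone and leaving out libraries.

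The groups, members, gene lists and tests were chosen with earlier results of these data known. The rule for named genes takes CTNNB1, the 12 largest rises and falls among called genes with a mean of 100 or more and no overlap, and up to 5 called genes of each list (without any call, its 2 most abundant genes at most). The text prints a selection of these, made after their values were seen, and says where other genes were chosen. Some results are not reported here. Figures were drawn with matplotlib 3.10.9.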

Additional observations from a re-analysis of the deposited data

Results flagged for a closer look

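Of 106 genes named here, 7 had 1 KO library far from the other 4 by Dixon's test at its 95% critical value. That is 6.60% of them, and chance alone gives about 1 in 20. Other genes given with values, FOS and EGR1 among them, were not put to this test. Only KO, with 5 libraries, was large enough for it. LEF1 was at 131 in KO 4 and at 76.1 to 86.9 in the others, which is still below every OE without Dox library. CTNNA3 was at 82.2 in KO 1 against 61.4 to 67.1, and ONECUT1 at 16.1 in KO 5 against 8.08 to 10.4. CRYBB1 was at 7.19 in KO 4 against 0.895 to 1.89, and TFAP2A at 2.77 in KO 1 against 4.47 to 4.72. EGF was low in KO 5, at 9.84 against 13.2 to 14.2, and EFEMP1 low in KO 3, at 10.4 against 22.2 to 25.9. The library that differs is not the same throughout. CRYBB1 and TFAP2A rest on few reads in KO.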

How the results depend on the processing

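Of the same 106 genes, 92 were called. Of these 92, 65 were called in each of the 23 alternative settings, 75 in each of the 8 fits that left out 1 library, and 0 changed direction. The count of genes called higher, 57, went to 29 with a filter of 50, 90 by DESeq2, 18 with KO 1, 2 and 3 alone and 28 with KO 4 and 5 alone, and ranged from 20 to 53 with 1 library left out. The count called lower, 246, went to 117 with a filter of 50 and 128 with KO 4 and 5 alone, and ranged from 140 to 234. CTNNB1 in KO against OE without Dox passed the threshold with no filter (log2 fold -0.49, adjusted p = 0.0138), with the filter over 14 libraries (-0.49, 0.0473), with sample quality weights (-0.52, 0.0158), in the fit of the 8 libraries alone (-0.49, 0.043) and by DESeq2 (-0.49, 0.0165). With 1 library left out its log2 fold was -0.55 to -0.43, and it passed without KO 2 (adjusted p = 0.0373). LHX6 and LHX8, not called in any setting, changed sign without OE 2 (LHX6 log2 fold -0.16, LHX8 log2 fold -0.26) and with KO 4 and 5 alone (-0.024 and -0.12), and with 1 library left out ranged from -0.16 to 0.74 and from -0.26 to 0.42. The cause of these changes was not tested.

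The labels give KO and OE without Dox shared replicate numbers 1 to 3 but no shared batch. Deviations from the group means correlated at 0.267, 0.05 and 0.125 for the 3 same-numbered pairs. The other pairs of KO 1 to 3 ranged from -0.342 (KO 1 with OE 3) to 0.115 (KO 1 with OE 2). KO 2 correlated more with OE 1 (0.0769) than with OE 2, and KO 5, which shares no number, reached 0.25 with OE 3. The values alone do not tell whether the numbers mark a shared batch. With the replicate block, in which KO 4 and 5 do not inform the contrast, 58 genes were higher and 270 lower, 231 of them among the 303 called without it, and CTNNB1 was at -0.39 (adjusted p = 0.222). Depth limits genes with few reads, whose folds depend on the pseudocount and whose absence below about 3 reads cannot be shown.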

Other observations

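Further genes called lower in KO were picked after their values were seen, from calls that hold with any 1 library left out, so that their stability is no result. They are growth factors, a neurotrophin receptor, matrix proteins, a secreted metalloprotease and an annexin. NTRK2, the receptor of the neurotrophin BDNF, was at 71.1, 53.8, 59.5, 94.3 and 154 in KO and at 581, 926 and 305 in OE without Dox (log2 fold -2.76, SE 0.38, adjusted p = 0.000933). EGF was at 9.84 to 14.2 against 46.2 to 47.6 (-1.79, adjusted p = 0.000127), and FGF19, a ligand of the early forebrain, at 3.58 to 8.98 against 20.9 to 42.6 (-2.35, adjusted p = 0.00077). WT was above KO for the 3 genes, at 1228 to 1470, 104 to 137 and 25.1 to 69.7. FBN2, a fibrillin of embryonic microfibrils, was at 84.1 to 191 against 463 to 568 (-1.86, adjusted p = 2.86e-05), and FBN1 at 85.9 to 136 against 186 to 300 (-1.09, adjusted p = 0.00305). EFEMP1, a fibulin, was at 10.4 to 25.9 against 69.5 to 172 (-2.28, adjusted p = 0.000933). ADAMTS18, a secreted metalloprotease, was at 0 to 8.5 against 61.6 to 114 (-4.69, adjusted p = 0.000366), and ANXA1, an annexin, at 3.69 to 16.1 against 44.4 to 68.9 (-2.62, adjusted p = 0.000227). The groups did not overlap for any of these 8 genes.

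Of genes of neurons, TRH, the thyrotropin-releasing hormone precursor, was at 32.3, 28.3, 30.2, 41.3 and 17.9 in KO and at 210, 251 and 390 in OE without Dox (log2 fold -3.19, SE 0.31, adjusted p = 8.62e-06). TMEM132D, a membrane protein of the brain, was at 1.89 to 4.72 against 56.2 to 56.7 (-3.61, adjusted p = 9.58e-07). KLHL14 was at 0 to 3.78 against 34.2 to 51.7 (-3.86, adjusted p = 8.04e-05). GRIK1, a kainate receptor subunit, was at 1.85 to 8.08 against 19.2 to 24.5 (-2.20, adjusted p = 0.00138). It was the single call among 28 neurotransmitter receptor genes, beside 1.53% of all genes called lower.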
